A study of Mus musculus with 6 samples.

Results

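Of 34745 genes in the table of mouse left ventricle RNA, 9 encode enzymes that make or remove superoxide and hydrogen peroxide: 5 subunits of NADPH oxidases (Nox4, Cybb, Cyba, Ncf1 and Ncf4), 3 superoxide dismutases (Sod1, Sod2 and Sod3) and catalase (Cat). They were picked by gene symbol, each symbol occurs once in the table, and all 9 passed the filter on low counts that left 15198 genes for testing. The picking was done with the comparison of the groups already known, so the differences of these 9 genes are a description and give no independent support. The samples are left ventricles of male wild-type C57BL/6 mice given as 8 weeks old. In 3 libraries the label is TAC, transverse aortic constriction, an operation that narrows the aorta with a ligature and makes the ventricle pump against raised pressure. In the other 3 it is Sham, a similar operation that leaves the aorta untied. The tissue was collected 6 weeks after surgery, and no label ties a library to one mouse, so p-values measure the spread between libraries, which may be technical. The question was which genes differ in the ventricle under long-standing pressure overload.

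NADPH oxidases carry electrons from NADPH across a membrane to oxygen. The catalytic subunit of the phagocyte enzyme, encoded by Cybb, sits in the membrane with the small subunit encoded by Cyba, and it works only after cytosolic subunits, among them the products of Ncf1 and Ncf4, join it. The enzyme of Nox4 also needs the Cyba product but no cytosolic subunit, is active once made and releases mainly hydrogen peroxide. Superoxide dismutases turn superoxide into hydrogen peroxide in the cytosol (Sod1), in mitochondria (Sod2) and outside the cell (Sod3), and catalase splits hydrogen peroxide in peroxisomes. In the heart these enzymes are studied for their part in hypertrophy, fibrosis and ischaemic injury.

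Gene counts summed to between 19810439 and 21489237 per library labelled TAC and between 17399510 and 28401399 per library labelled Sham. Defining cardiomyocyte genes were abundant in all 6 libraries, with 315610 to 677970 counts for Myh6, the alpha-myosin heavy chain. Of 4 genes that mark pressure overload, 2 ran against the labels past the threshold. Nppa, the atrial natriuretic peptide gene, stood at 64.3 to 95.1 CPM in the TAC-labelled libraries, against 595 to 1894 CPM in the Sham-labelled libraries, and Acta1, the skeletal alpha-actin gene of the fetal heart programme, at 121 to 641 CPM in the TAC-labelled libraries and 3060 to 5030 CPM in the Sham-labelled libraries (CPM, counts scaled to library size by the trimmed mean of M-values). Both were past the threshold in that direction (edgeR's quasi-likelihood test, adjusted p = 0.0222 and 0.0448). Nppb, the brain natriuretic peptide gene, had 137.6, 26.5 and 86.5 CPM in TAC-labelled libraries 1, 2 and 3. In Sham-labelled libraries 1, 2 and 3 it had 137.8, 419 and 197 CPM. Its groups were thus apart only narrowly, also against the labels, and its log2 difference of -1.59 did not pass (adjusted p = 0.191). Myh7, the beta-myosin heavy chain gene, overlapped between the groups, with 212, 65.7 and 6050 CPM in TAC-labelled libraries 1, 2 and 3 and 1816, 6323 and 2072 CPM in Sham-labelled libraries 1, 2 and 3 (adjusted p = 0.814), so the library labelled TAC 3 stood apart from the other 2 of its label. Groups are therefore called by their labels throughout, and every direction is that of the labels. Whether libraries or columns were exchanged between the groups was not tested. If all libraries of both labels were exchanged, every direction given here would be reversed.

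Nox4 and Sod3 had lower levels in the TAC-labelled libraries and were the 2 members past the threshold. Of the 7 that did not pass, Ncf1, Ncf4 and Cybb had log2 differences of -0.94, -0.82 and -0.65, Cat and Cyba of -0.15 and -0.06, and Sod1 and Sod2 of 0.44 and 0.43. Levels of different genes are compared in FPKM, fragments scaled to gene length and library total, as the authors deposited them. In that unit the members span from Sod2, with a mean of 143 FPKM over the 6 libraries, through Sod1 at 116, Cat at 84.1, Cyba at 10.6, Sod3 at 7.17, Cybb at 2.37, Nox4 at 1.67 and Ncf1 at 1.05 down to Ncf4 at 0.390 FPKM. The ranges of Sod2 and Sod1 over the libraries overlap, as do those of Cyba and Sod3, of Cybb and Nox4, of Nox4 and Ncf1, and of Ncf1 and Ncf4. Sod1 and Cat came close, with a lowest Sod1 value of 97.7 FPKM and a highest Cat value of 96.2 FPKM. FPKM of Nox4 was divided by a long summed gene model of 10541 bases and that of Sod1 by one of 646 bases, as the ratio of deposited counts to FPKM shows, so the order holds for these gene models.

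**Figure D1:**
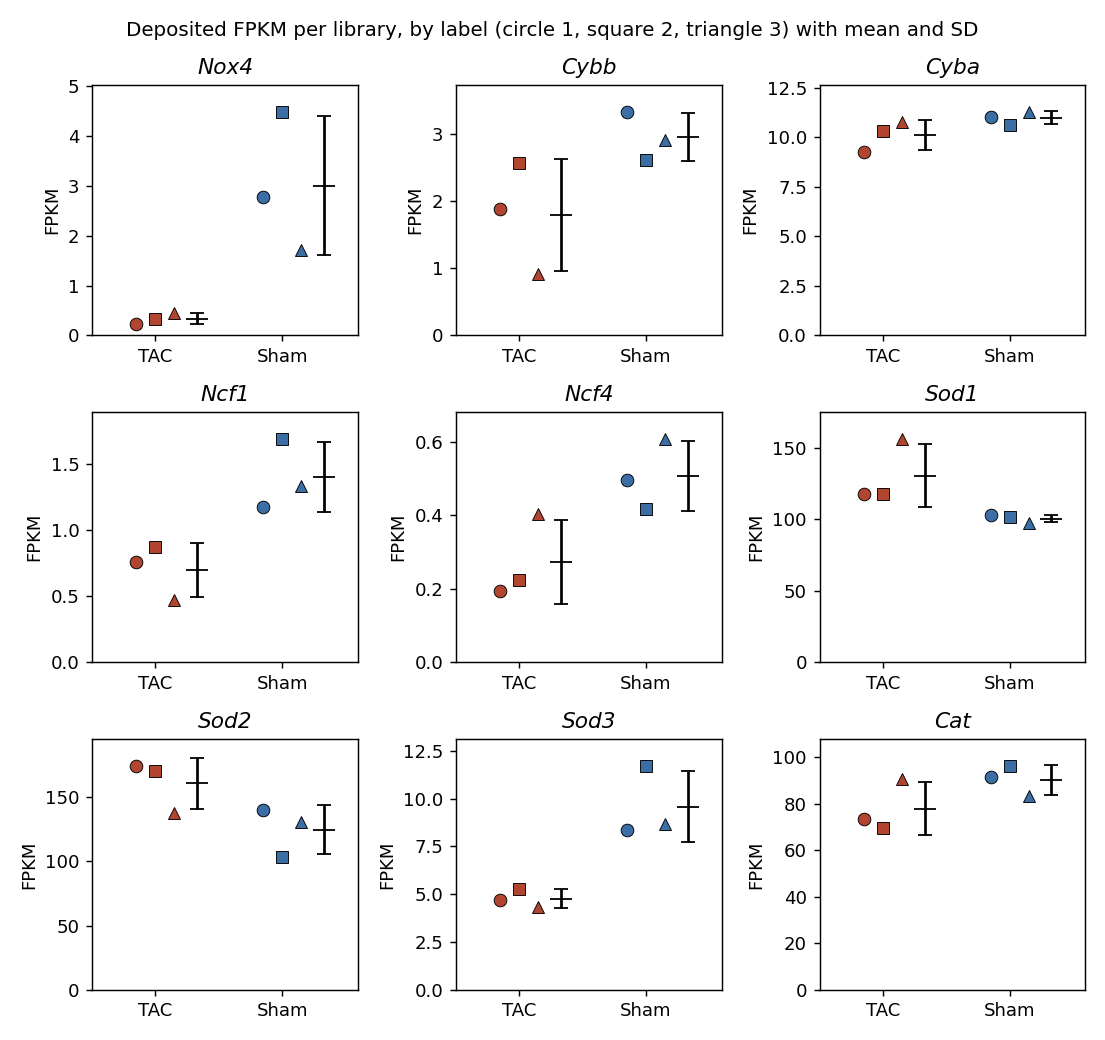
Deposited FPKM (vertical axis, from 0, a scale of its own for each gene) of the 9 members in the 3 libraries labelled TAC, left, and the 3 labelled Sham, right; the bar beside each group is its mean ± SD. The 3 Nox4 values labelled TAC lie between 0.230 and 0.445 FPKM, all below the lowest value labelled Sham, 1.72 FPKM.

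Across the whole gene table, 217 genes or 1.43% of those tested were past an adjusted p of 0.05, and 2 of the 9 members were among them, Nox4 and Sod3, both lower in the TAC-labelled libraries; 1.11% of genes were past it in that direction and 0.322% in the other. Because this comparison was known when the members were picked, nothing is read from that share. The groups did not overlap in CPM for 6 members, 4 lower in the TAC-labelled libraries (Nox4, Ncf1, Ncf4 and Sod3) and 2 higher (Sod1 and Sod2), where 27.0% of all genes tested showed no overlap, 13.6% lower and 13.4% higher in the TAC-labelled libraries. The median log2 difference, labelled TAC minus labelled Sham, was -0.65 over the 9 members and 0.01 over all genes tested.

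**Figure D2:**
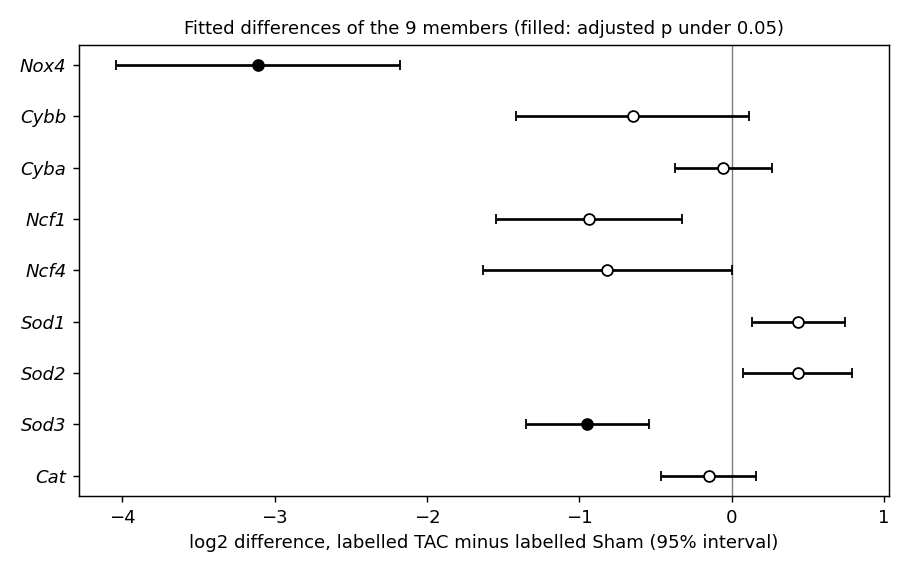
Fitted log2 difference, labelled TAC minus labelled Sham, of each member (horizontal axis) with its 95% interval from the fit across all genes; filled points are past an adjusted p of 0.05. Nox4 at -3.11 lies farthest from 0, Sod3 at -0.95 follows, and the intervals of Cybb, Cyba and Cat include 0.

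Nox4 lies on chromosome 7 from 87246096 to 87398710 (GRCm38, ENSMUSG00000030562). It had 0.230, 0.335 and 0.445 FPKM in TAC-labelled libraries 1, 2 and 3, from 52, 71 and 93 counts. In the libraries labelled Sham 1, 2 and 3 it had 2.78, 4.49 and 1.72 FPKM, from 606, 1344 and 316 counts. All 3 libraries labelled TAC were low, the Sham-labelled libraries were high and differed among themselves by more, and the groups did not overlap. The mean was 0.337 ± 0.108 FPKM in the TAC-labelled libraries and 3.0 ± 1.4 FPKM in the Sham-labelled libraries (SD, n = 3 each). The fitted log2 difference was -3.11 (SE 0.40, 95% interval -4.04 to -2.18), 8.65-fold lower in the TAC-labelled libraries. Among all genes tested it ranked 35th by the most negative difference and 38th by p (edgeR's quasi-likelihood test, adjusted p = 0.0256). Without the library labelled TAC 1, 2 or 3 the adjusted p was 0.0824, 0.0810 or 0.0714, past the threshold no longer, with log2 differences of -2.90, -3.11 and -3.35.

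Cybb, the catalytic subunit of the phagocyte oxidase (chromosome X, 9435252 to 9487771), had 1.89, 2.57 and 0.915 FPKM in TAC-labelled libraries 1, 2 and 3, against 3.33, 2.61 and 2.91 FPKM in Sham-labelled libraries 1, 2 and 3. The groups were apart in FPKM only narrowly, at 2.57 and 2.61, and overlapped in CPM, where the library labelled TAC 2 had 16.49 and that labelled Sham 2 had 16.46. The log2 difference of -0.65 (SE 0.33, 95% interval -1.42 to 0.12) did not pass (adjusted p = 0.309). Nox4 RNA per length was below that of Cybb in all 3 libraries labelled TAC, at 0.122, 0.131 and 0.487 of it in TAC 1, 2 and 3. In the Sham-labelled libraries it was 0.837, 1.72 and 0.593 of the Cybb level in Sham 1, 2 and 3. Per length it thus exceeded Cybb in the library labelled Sham 2 alone. These ratios rest on gene models of 10541 bases for Nox4 and 6289 bases for Cybb. In CPM, which leaves out length, Nox4 had 29.0, 47.5 and 17.2 in the libraries labelled Sham 1, 2 and 3. Cybb had 20.7, 16.5 and 17.3 CPM there, so in that unit Nox4 was higher in Sham 1 and Sham 2.

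The sequence around the RefSeq start of each of these catalytic subunit genes is shown because their levels differed by such unequal amounts between the groups. Whether the sequence bears on those levels was not tested. Both windows run from 250 bases before to 50 bases after the RefSeq start, are given in the direction of the gene and come from RefSeq on GRCm38.p6; capitals mark a match to the AP-1 motif TGANTCA on either strand. The Nox4 window is chr7:87246399-87246698, plus strand, and the Cybb window is chrX:9469275-9469574, minus strand. Both windows lie inside the loci that were counted, which reach further upstream, to 87246096 for Nox4 and to 9487771 for Cybb.
Nox4: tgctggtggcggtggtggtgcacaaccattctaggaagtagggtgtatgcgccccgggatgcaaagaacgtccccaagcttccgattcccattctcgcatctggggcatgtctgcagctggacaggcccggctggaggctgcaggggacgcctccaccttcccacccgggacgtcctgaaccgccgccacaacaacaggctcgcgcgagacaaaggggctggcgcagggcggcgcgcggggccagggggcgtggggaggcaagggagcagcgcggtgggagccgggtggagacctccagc
Cybb: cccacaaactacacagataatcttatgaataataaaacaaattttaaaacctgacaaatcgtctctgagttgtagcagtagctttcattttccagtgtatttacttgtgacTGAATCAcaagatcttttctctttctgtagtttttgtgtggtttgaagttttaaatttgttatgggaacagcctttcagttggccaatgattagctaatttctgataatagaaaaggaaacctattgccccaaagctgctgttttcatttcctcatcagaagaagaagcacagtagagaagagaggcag
The Nox4 window is 68.3% G and C with 24 CG pairs, and the Cybb window 35.3% with 1 CG pair, where the median of 32544 promoter windows is 53% and 7 pairs. The single AP-1 match in the Cybb window begins 139 bases before the start; 7.79% of all windows hold one, and the Nox4 window holds none. Neither holds the TATA box letters TATAAA, found in 13.6% of windows, or the antioxidant response element TGACNNNGC, found in 12.4%. Such matches are letters only and say nothing of binding.

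Cyba, the small membrane subunit that both catalytic subunits need (chromosome 8, 122424772 to 122432940), was nearly level. It had 9.27, 10.3 and 10.8 FPKM in TAC-labelled libraries 1, 2 and 3 and 11.1, 10.6 and 11.3 FPKM in Sham-labelled libraries 1, 2 and 3, and the groups overlapped. The log2 difference was -0.06 (SE 0.14), with a 95% interval of -0.37 to 0.26 (adjusted p = 0.852). Per length, Cyba RNA was 3.56 to 7.93 times the sum of Nox4 and Cybb in the TAC-labelled libraries and 1.5 to 2.44 times that sum in the Sham-labelled libraries. The Cyba gene model has 758 bases, against 10541 for Nox4 and 6289 for Cybb, so these ratios hold for these gene models.

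Ncf1 encodes the organiser subunit that brings the cytosolic part of the phagocyte oxidase to the membrane (chromosome 5, 134220053 to 134229625). It had 0.760, 0.873 and 0.472 FPKM in TAC-labelled libraries 1, 2 and 3, against 1.18, 1.69 and 1.34 FPKM in Sham-labelled libraries 1, 2 and 3. The groups did not overlap, and the log2 difference was -0.94 (SE 0.26, 95% interval -1.55 to -0.33). It did not pass in edgeR's quasi-likelihood test (adjusted p = 0.116) and passed in DESeq2 (adjusted p = 0.0269). Ncf4, a further cytosolic subunit that binds a membrane phospholipid (chromosome 15, 78244801 to 78262580), was the scarcest member, with 13, 14 and 25 counts in TAC-labelled libraries 1, 2 and 3 and 32, 37 and 33 counts in Sham-labelled libraries 1, 2 and 3. That is 0.194, 0.223 and 0.404 FPKM in TAC-labelled libraries 1, 2 and 3, against 0.496, 0.417 and 0.607 FPKM in Sham-labelled libraries 1, 2 and 3. The groups did not overlap. Its log2 difference of -0.82 (SE 0.35, adjusted p = 0.239) did not pass, and its 95% interval reached from -1.63 to nearly 0.

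Cybb, Ncf1 and Ncf4 are used mainly by macrophages and neutrophils, and in bulk tissue fewer cells of a type and less RNA per cell cannot be told apart. Their summed level was 2.84, 3.66 and 1.79 FPKM in TAC-labelled libraries 1, 2 and 3 and 5.0, 4.72 and 4.85 FPKM in Sham-labelled libraries 1, 2 and 3. The 14 macrophage markers summed to 250 to 403 CPM in the TAC-labelled libraries and to 483 to 534 CPM in the Sham-labelled libraries. Both this sum and that of the 3 subunits were lowest in the library labelled TAC 3. Cybb and Ncf1 were lowest there as well, but Ncf4 was higher in TAC 3 than in TAC 1 and 2. All 14 markers had a negative log2 difference (median -0.67). None passed in edgeR, with 9 at an unadjusted p under 0.05 (20.9% of all genes tested), while DESeq2 called 3 (7.56% of all genes) and limma on log2(FPKM + 0.1) called 0 (1.88% of all genes). Neutrophil markers did not share this pattern. The 9 of them summed to 27.5, 6.77 and 1.42 CPM in TAC-labelled libraries 1, 2 and 3 and to 3.74 to 6.68 CPM in the Sham-labelled libraries, and 1 marker, Camp, was at 0 in every library. Without TAC 3 the log2 differences were -0.33 for Cybb, -0.71 for Ncf1 and -1.19 for Ncf4, none past the threshold. The part of these cells in the values of Cybb, Ncf1 and Ncf4 was not tested.

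The 8 markers of activated fibroblasts summed to 145, 190 and 97.7 CPM in TAC-labelled libraries 1, 2 and 3 and to 1347, 2753 and 1177 CPM in Sham-labelled libraries 1, 2 and 3. Of them 6 were past the threshold, where 1.43% of all genes tested were. All 6 were lower in the TAC-labelled libraries, a direction in which 1.11% of all genes passed (median log2 difference of the list -3.67). The groups overlapped for Fap, with 5.70, 8.30 and 7.17 CPM in TAC-labelled libraries 1, 2 and 3 and 10.2, 7.66 and 8.58 CPM in Sham-labelled libraries 1, 2 and 3 (log2 difference -0.32, adjusted p = 0.387), and Cthrc1 was at 0 in the library labelled TAC 3. The 10 general fibroblast markers summed to 1640 to 1901 CPM in the TAC-labelled libraries and 2827 to 3580 CPM in the Sham-labelled libraries. All 10 had a negative log2 difference. The groups did not overlap for 8 (27.0% of all genes tested), and 8 had an unadjusted p under 0.05 (20.9% of all genes). In edgeR 1 passed, Col1a2 (1.43% of all genes), while DESeq2 called 6 (7.56% of all genes) and limma 1 (1.88% of all genes). The 9 markers of smooth muscle and pericytes, a further site of Nox4 and Sod3 expression, went both ways. The groups did not overlap for 6 (27.0% of all genes tested). Of these, 4 were lower in the TAC-labelled libraries (Cnn1 with a log2 difference of -1.04, Des -0.80, Tagln -0.53 and Pdgfrb -0.40) and 2 higher (Abcc9 0.67 and Smtn 0.52). None of the 9 passed in edgeR, with 6 at an unadjusted p under 0.05 (20.9% of all genes tested). DESeq2 called 4 (7.56% of all genes) and limma 2 (1.88% of all genes). The sum of the 9 markers overlapped, at 3474 to 4179 CPM in the TAC-labelled libraries and 4061 to 6151 CPM in the Sham-labelled libraries. Most of it was Des, which cardiomyocytes also express, and Rgs5. Of the 8 endothelial markers, 6 had a negative and 2 a positive log2 difference (median -0.06). The groups did not overlap for 1 (27.0% of all genes tested), Kdr, which was higher in the TAC-labelled libraries. None of the 8 passed in edgeR, and DESeq2 called 1 (7.56% of all genes). The 7 cardiomyocyte markers all had positive log2 differences (median 0.52). The part of any of these cells in the Nox4 and Sod3 values was not tested.

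Sod3 encodes the secreted copper and zinc dismutase that is held in the extracellular matrix (chromosome 5, 52363791 to 52371418). It had 4.69, 5.28 and 4.31 FPKM in TAC-labelled libraries 1, 2 and 3, against 8.36, 11.7 and 8.66 FPKM in Sham-labelled libraries 1, 2 and 3. The groups did not overlap, and the library labelled Sham 2 was the highest, as it was for Nox4. The log2 difference was -0.95 (SE 0.17, 95% interval -1.35 to -0.54), 1.93-fold lower in the TAC-labelled libraries, and it lay just inside the threshold (edgeR's quasi-likelihood test, adjusted p = 0.0488). Leaving out any library but Sham 1 moved it outside, with adjusted p = 0.144, 0.112 and 0.111 without TAC 1, 2 and 3 and 0.113 and 0.107 without Sham 2 and 3.

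Sod1, the cytosolic copper and zinc enzyme (chromosome 16, 90220742 to 90226322), had 118, 118 and 156 FPKM in TAC-labelled libraries 1, 2 and 3, against 103, 101 and 97.7 FPKM in Sham-labelled libraries 1, 2 and 3. The libraries labelled TAC were all above the Sham-labelled libraries, with TAC 3 the highest. The log2 difference was 0.44 (SE 0.13, 95% interval 0.13 to 0.74), and it did not pass (adjusted p = 0.129). Sod2, the manganese enzyme of mitochondria (chromosome 17, 13007839 to 13018119), had 174, 170 and 138 FPKM in TAC-labelled libraries 1, 2 and 3, against 140, 104 and 131 FPKM in Sham-labelled libraries 1, 2 and 3. Its groups overlapped in FPKM, at TAC 3 and Sham 1, but not in CPM, where those libraries had 531 and 529. The log2 difference was 0.43 (SE 0.15, 95% interval 0.08 to 0.79, adjusted p = 0.173) and did not pass. Sod1 and Sod2 thus differed by nearly the same amount, yet the library labelled TAC 3 was the highest of its label in Sod1 and the lowest in Sod2. All 7 cardiomyocyte markers had positive log2 differences too (median 0.52). The groups did not overlap for 6 of them (27.0% of all genes tested, 13.4% higher in the TAC-labelled libraries). Their sum was 64038, 58455 and 48736 CPM in TAC-labelled libraries 1, 2 and 3 and 47012, 33737 and 36364 CPM in Sham-labelled libraries 1, 2 and 3. The largest single part of that sum was Myh6. It had 32774, 30796 and 25561 CPM in TAC-labelled libraries 1, 2 and 3 and 23896, 13733 and 17131 CPM in Sham-labelled libraries 1, 2 and 3. None of the 7 passed in edgeR, with 6 at an unadjusted p under 0.05 (20.9% of all genes tested). DESeq2 called 3 (7.56% of all genes) and limma 0 (1.88% of all genes). The part of these cells in the Sod1 and Sod2 values was not tested.

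Among the 3 dismutases, Sod3 made up the smallest part of the RNA per length. Its share of their summed FPKM was 1.58%, 1.80% and 1.44% in TAC-labelled libraries 1, 2 and 3 and 3.33%, 5.40% and 3.65% in Sham-labelled libraries 1, 2 and 3, with no overlap. The sum itself was 297, 294 and 299 FPKM in TAC-labelled libraries 1, 2 and 3, against 251, 217 and 237 FPKM in Sham-labelled libraries 1, 2 and 3. The Sod1 share ran from 39.6% to 52.3% in the TAC-labelled libraries and from 40.9% to 46.8% in the Sham-labelled libraries, so the balance between Sod1 and Sod2 overlapped.

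The start of Sod1 is shown because it alone, among the 7 members with a RefSeq window, holds the letters of both motifs. These are the TATA box and the antioxidant response element, a kind of site through which the stress regulator Nrf2 acts. The letters of the first occur in 13.6% of all windows and those of the second in 12.4%. They are letters only and say nothing of binding. Capitals mark the 2 matches, TGACNNNGC read on the minus strand and TATAAA on the plus strand, in chr16:90220512-90220811, plus strand, on GRCm38.p6.
Sod1: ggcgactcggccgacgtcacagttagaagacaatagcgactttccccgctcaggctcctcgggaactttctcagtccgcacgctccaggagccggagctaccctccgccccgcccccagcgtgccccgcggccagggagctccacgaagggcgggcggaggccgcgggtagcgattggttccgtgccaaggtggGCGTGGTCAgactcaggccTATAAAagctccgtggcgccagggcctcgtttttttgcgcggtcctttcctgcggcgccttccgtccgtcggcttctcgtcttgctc
The antioxidant response element letters begin 56 bases and the TATA box 37 bases before the start. The windows of Cyba, Ncf1, Sod2 and Cat held none of the 3 motifs, and Ncf4 and Sod3 had no entry.

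Cat, the peroxisomal enzyme (chromosome 2, 103453849 to 103485160), had 73.6, 69.4 and 90.8 FPKM in TAC-labelled libraries 1, 2 and 3 and 91.4, 96.2 and 83.2 FPKM in Sham-labelled libraries 1, 2 and 3. The groups overlapped through the high value of the library labelled TAC 3. The log2 difference was -0.15 (SE 0.14, 95% interval -0.47 to 0.16, adjusted p = 0.565). Set against the summed dismutase level, Cat stood at 0.248, 0.236 and 0.304 in TAC-labelled libraries 1, 2 and 3, below the 0.364, 0.443 and 0.351 in Sham-labelled libraries 1, 2 and 3.

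The rest of the pathway held no gene past the threshold in edgeR. Of 57 further genes in 7 lists by role, 50 were tested, with 8 at an unadjusted p under 0.05, where 20.9% of all genes were. DESeq2 called 3 of them, against 7.56% of all genes, namely Gpx1, Hmox1 and Maoa, all lower in the TAC-labelled libraries, and limma called 0. Of the 50, 31 had a negative and 19 a positive log2 difference, with a median of -0.05. The groups did not overlap for 9 of them, 6 lower and 3 higher in the TAC-labelled libraries, where 27.0% of all genes tested did not overlap.

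**Figure D3:**
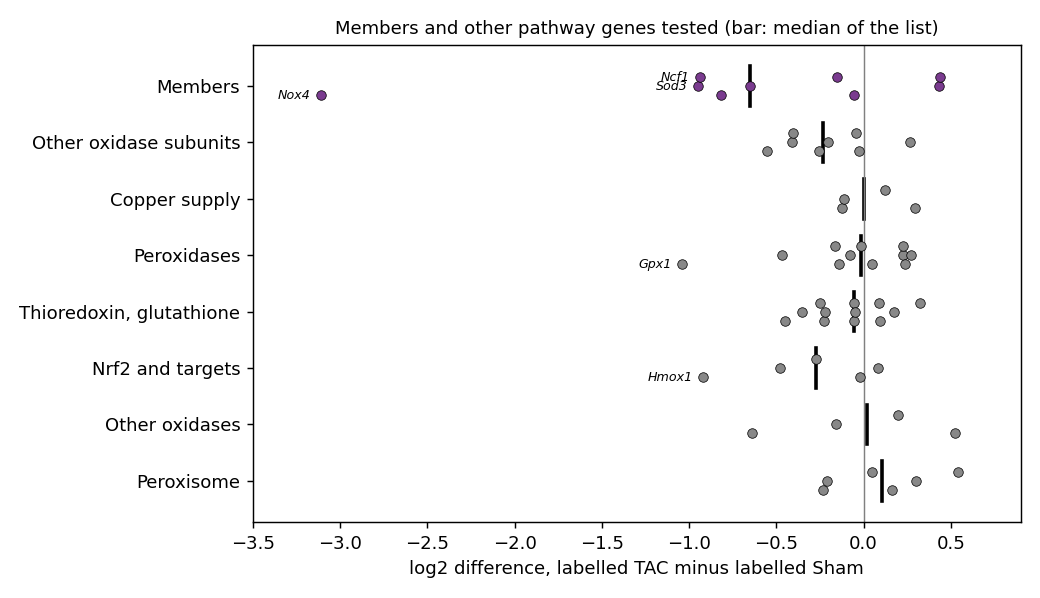
Log2 difference, labelled TAC minus labelled Sham (horizontal axis), of the 9 members and of the 50 other pathway genes tested, 1 row per list; each point is a gene, the bar is the median of its list, and genes beyond 0.9 in size are named. Nox4 lies beyond every other gene plotted, and the lowest median of another list is -0.27, for Nrf2 and its targets.

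Of 13 other oxidase genes, 8 were tested. Other catalytic subunits were scarce, and Nox1 had 18 counts over the 6 libraries and Nox3 had 0. Cybc1, a chaperone that helps assemble the membrane part of the phagocyte oxidase, had 8.64 ± 0.40 CPM in the TAC-labelled libraries and 11.4 ± 1.89 CPM in the Sham-labelled libraries (SD, n = 3 each; log2 difference -0.41, adjusted p = 0.203). Rac2, the small GTPase of blood cells in that complex, had a log2 difference of -0.55 (adjusted p = 0.463). For its widespread relative Rac1, the library labelled Sham 3 had 31.6 CPM and the other 5 had 124 to 161 CPM.

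Among 4 genes tested for copper supply to the dismutases, none was past the threshold in edgeR or DESeq2, and 0 were at an unadjusted p under 0.05. Slc31a1, the copper importer, had a log2 difference of 0.30 (adjusted p = 0.300), and Ccs, the chaperone that loads copper into the Sod1 product, of 0.12 (adjusted p = 0.738). Of 11 peroxidases, 6 had a negative and 5 a positive difference. Gpx1, a cytosolic glutathione peroxidase, had 21.5, 7.18 and 19.0 CPM in TAC-labelled libraries 1, 2 and 3, against 29.5, 36.4 and 32.0 CPM in Sham-labelled libraries 1, 2 and 3 (log2 difference -1.04, SE 0.35, adjusted p = 0.159). Prdx5, a peroxiredoxin, went the other way with 77.6 ± 4.42 CPM in the TAC-labelled libraries and 64.3 ± 6.75 CPM in the Sham-labelled libraries (SD, n = 3 each; adjusted p = 0.226).

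In the 12 genes of the thioredoxin and glutathione systems, Gsr, glutathione reductase, had the smallest p, with 16.4 ± 0.27 CPM in the TAC-labelled libraries and 22.4 ± 2.97 CPM in the Sham-labelled libraries (SD, n = 3 each; adjusted p = 0.125). Gclm, the modifier subunit of the enzyme that starts glutathione synthesis, had a log2 difference of -0.35 (adjusted p = 0.243). Among Nrf2 and its targets, Hmox1, haem oxygenase, had 8.27, 7.79 and 9.50 CPM in TAC-labelled libraries 1, 2 and 3, against 11.6, 16.5 and 20.2 CPM in Sham-labelled libraries 1, 2 and 3. Its groups did not overlap, and its log2 difference of -0.92 (SE 0.21) did not pass (adjusted p = 0.0807). G6pdx, which supplies NADPH through the pentose phosphate pathway, had a log2 difference of -0.48 (adjusted p = 0.238).

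The monoamine oxidases, mitochondrial enzymes that release hydrogen peroxide, had estimates of opposite sign, neither past the threshold in edgeR, while DESeq2 called Maoa. Maoa had 5.24 ± 0.28 CPM in the TAC-labelled libraries and 8.17 ± 0.30 CPM in the Sham-labelled libraries (SD, n = 3 each; log2 difference -0.64, adjusted p = 0.0757), while Maob had 40.3 ± 8.70 CPM in the TAC-labelled libraries and 28.1 ± 8.77 CPM in the Sham-labelled libraries (SD, n = 3 each; log2 difference 0.52, adjusted p = 0.284). Of the 6 peroxisomal genes set beside Cat, none passed in edgeR or DESeq2, and 0 were at an unadjusted p under 0.05. Pex5, the receptor that imports catalase and other peroxisomal enzymes, had a log2 difference of -0.21 (adjusted p = 0.314), and Pex14, its docking partner, of -0.23 (adjusted p = 0.376).

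The genes whose pattern over the 6 libraries was nearest to that of Nox4 were found among 9820 genes with a mean of at least 1 FPKM and an assigned symbol, by the root-mean-square difference of log2 CPM after each gene's mean was taken off. Col12a1, a collagen chain gene, was nearest (0.29), followed by Pamr1 (0.31), Itgbl1 (0.42), Nppa (0.44) and Fmod, the gene of the matrix proteoglycan fibromodulin (0.47). Col12a1 had 6.09, 7.69 and 10.98 CPM in TAC-labelled libraries 1, 2 and 3 and 59.9, 121 and 64.9 CPM in Sham-labelled libraries 1, 2 and 3. For Sod3 the nearest were Gnao1 (0.07), Lrp1 (0.08), Plod2 (0.09), Endod1 (0.09) and Inpp5d (0.09). Lrp1, an endocytic receptor gene, had 449, 455 and 405 CPM in TAC-labelled libraries 1, 2 and 3 and 834, 1101 and 761 CPM in Sham-labelled libraries 1, 2 and 3. The likeness is over 6 libraries that fall into 2 groups, and a gene with a group difference of like size is near for that reason alone.

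**Figure D4:**
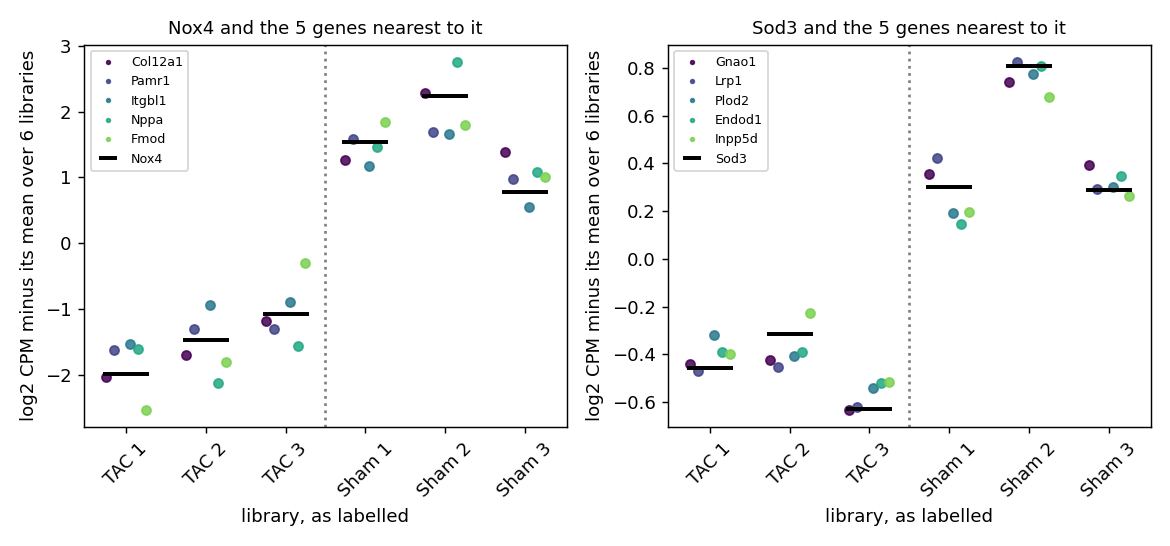
Log2 CPM minus its mean over the 6 libraries (vertical axis) in each library by label, TAC left and Sham right, for Nox4 and Sod3 (black bars) and the 5 genes nearest to each (points). Both bars are highest in the library labelled Sham 2; Nox4 is lowest in TAC 1 and Sod3 in TAC 3.

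The second deposited table, of long non-coding RNA transcripts, was not used to pick the members. It lists 8 transcripts that overlap 5 of the members or lie within 5 kb of them, 7 of them overlapping; 5 could be tested and none was past the threshold (edgeR's quasi-likelihood test over 16035 transcripts, of which 0.106% were called), with 1 at an unadjusted p under 0.05, where 12.6% of all transcripts tested were. That one, NONMMUT071806.2, lies within Cybb (chromosome X, 9435498 to 9437298) and had 3.33, 4.46 and 1.96 CPM in TAC-labelled libraries 1, 2 and 3, against 6.56, 5.19 and 5.75 CPM in Sham-labelled libraries 1, 2 and 3 (log2 difference -0.84, SE 0.30, adjusted p = 0.333). The transcripts within Sod1 (NONMMUT027624.2, log2 difference 0.11) and within Cyba (NONMMUT067520.2, log2 difference 0.01) were near 0, as was NONMMUT028279.2, which lies 4319 bases from Sod2 (log2 difference -0.11, adjusted p = 0.944). NONMMUT071807.2 within Cybb, with 10 counts over the 6 libraries, and NONMMUT054765.2 within Ncf1, with 19, were too scarce to test. No strand is given, so reads of a transcript that overlaps a member cannot be told apart from those of the member itself.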

How the data were processed

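Per the labels' protocols, total RNA came from a miRNeasy kit with a DNase step, and libraries from a VAHTS total RNA kit. HISAT2 2.0.4, StringTie 1.3.0 and GRCm38 are named in the submitters' processing notes; which program counted, on which strand and with what filter was not given in the sources used here. The authors deposited whole-number counts and FPKM values, per the file headers, and each library was tied to its columns by the name in its description label. From the counts, edgeR 4.0.16 in R 4.3.3 gave the differences (quasi-likelihood test, TMM scaling, filterByExpr with a minimum count of 10, Benjamini-Hochberg over all genes tested, adjusted p under 0.05). An SE is the size of the log2 difference over the root of F. The lncRNA table was fitted alone, with the library sizes its FPKM imply. The fit was also run on counts simulated from its own estimates of mean and spread. Such a run cannot show how the fit behaves with an outlying library or wrong labels, and its outcome is not used here. Alternatives were DESeq2 1.42.0, limma 3.58.1 on log2(FPKM + 0.1) and log2(FPKM + 1), other scalings and filters, a replicate block and each library left out. The members, lists and tests were chosen with earlier results of these data known. Named genes are the members, Nppa, Acta1, the 2 genes with the smallest p per pathway list, the 5 nearest to Nox4 and to Sod3, and lncRNA transcripts within 5 kb with at least 10 counts; Nox1, Nox3, Rac1, Nppb, Myh7 and single markers were named after their values were seen. List symbols were matched directly, except Cybc1, found through its gene ID. One gene of the oxidase list is counted but not reported by name here.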

Additional observations from a re-analysis of the deposited data

How the results depend on the processing

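Over 15 alternatives (14 for Ncf4, which the filter at a mean FPKM of 1 removed) no member changed the sign of its log2 difference; Nox4 ran from -3.40 to -1.52 (the value of limma on log2(FPKM + 1), which understates low genes) and was past the threshold in all but 4 settings. Sod3 ran from -1.04 to -0.75 and was past the threshold in 8 settings, the main fit included. It lay just outside where genes under a mean FPKM of 1 were dropped and where totals left out mitochondrial genes (edgeR's quasi-likelihood test, adjusted p = 0.0515 and 0.0508). The count of members past the threshold, 2, was 3 with DESeq2, which called Ncf1 as well. It was 1 where genes under a mean FPKM of 1 were dropped and where totals left out mitochondrial genes, and 0 with replicate numbers as a block. With 1 library left out it was 0 to 2 (0 without the library labelled TAC 1, 2 or 3, and 1 without Sham 2 or Sham 3). Fits with fewer libraries can have less power, and its part here was not tested. Of the pathway genes none was past the threshold, against 3 with DESeq2 and 0 to 1 with 1 library left out (Hmox1, without Sham 1). The cause of these changes was not tested. Over all genes the count was 1166 with DESeq2 and 41 with the block, against 217. With 1 library left out it was 0 to 397 (0 without TAC 1 and 397 without Sham 1). Libraries with the same number did not deviate together (correlations -0.15, -0.11 and -0.09, and 0 of the 6 libraries correlated best with its own number). No pairing by number was seen, but with 3 libraries per group this check cannot exclude one. Depth limits Ncf4, which had 13 to 37 counts per library.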

Other observations

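A lncRNA transcript within the 3′ part of the Sod2 locus, NONMMUT028277.2 (chromosome 17, 13015744 to 13018117, GRCm38), had 4031 counts in the library labelled TAC 1 and 5 counts in each of the other 5 libraries. It did not pass the filter on low counts and was not tested. Sod2 itself had 14328 counts in TAC 1 and 8704 to 13065 in the other 5 libraries. The neighbouring transcript NONMMUT028278.2, which overlaps it, had 962, 933 and 721 counts in TAC-labelled libraries 1, 2 and 3 and 843, 747 and 616 counts in Sham-labelled libraries 1, 2 and 3, with no such jump. The sources used here do not say how reads were shared between overlapping transcripts.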
